A study of Homo sapiens with 16 samples.

Results

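The mimic effect shared by both cell lines was taken from all 16 libraries of the series, the 8 that received a MIR9-2-5p mimic against the 8 that received a scrambled mimic, with the cell line as a covariate (the additive fit). A gene was counted as alike in both lines when it passed this fit, passed in each line fitted alone in the same direction, and had a difference between its log2 fold changes in the lines whose 95% interval lay inside plus or minus 0.585, that is log2 of 1.5. Of 15173 genes tested in both lines, 1519 were alike, 799 of them higher and 720 lower with the mimic. Membership was set by measured changes, so the direction and size of the members' changes are given as a description.

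RNA was sequenced from NTERA-2 cells, used as the clone NT2/D1 of an embryonal carcinoma (EC), and from TCam-2 cells, derived from a seminoma (SEM). Cells of each line were transfected with the mimic or its scrambled counterpart and harvested 3 days later, which made groups of 4 biological replicates: NT2/D1 with MIR9-2-5p, NT2/D1 scrambled, TCam-2 with MIR9-2-5p and TCam-2 scrambled. Each tumour type was represented by 1 line, and untransfected cells were not analysed here. Libraries held between 14167738 and 22427162 counts. As markers of the lines, SOX2, an EC transcription factor, was at a mean of 368 CPM, the count relative to the TMM-scaled library total, in scrambled NT2/D1 cells and 1.55 CPM in scrambled TCam-2 cells, whereas SOX17, its seminoma counterpart, was at 0.0265 and 237 CPM. Of 8 leukocyte markers 6, among them PTPRC and CD3E, did not pass the filter on low counts, and the list summed to at most 5.70 CPM. The share of counts on mitochondrial genes moved with the mimic in both lines: it was 4.17% to 4.54% with MIR9-2-5p and 4.72% to 5.46% without in NT2/D1, and 1.85% to 2.18% against 3.63% to 4.01% in TCam-2. TMM scaling factors were 0.893 to 0.970 in the scrambled TCam-2 libraries and 1.01 to 1.04 in all others. The part of these differences in the results below was not tested, and a lower level per cell cannot be told apart from fewer cells holding a transcript.

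MicroRNAs load onto Argonaute proteins and pair through their seed, bases 2 to 8, with sites that lie mostly in the 3' UTRs of mRNAs, which are then destabilised or translated less. miR-9, abundant in the developing brain, limits progenitor proliferation and promotes neuronal differentiation. Pluripotent and malignant germ cells express instead the miR-302 family and its relatives such as MIR372, which share another seed and favour rapid cycling.

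The mature miRNAs are shown from RefSeq (GRCh38.p14) with the seed in capitals, because the sites discussed for the alike genes are read from them. MIR9-2-5p lies at chr5:88666902-88666924 on the minus strand, and miR-302a-3p and MIR372-3p are shown as the comparison seed.
MIR9-2-5p: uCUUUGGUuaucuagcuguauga
MIR9-2-3p: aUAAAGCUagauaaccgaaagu
miR-302a-3p: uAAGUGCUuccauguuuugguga
MIR372-3p: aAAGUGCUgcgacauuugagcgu

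Sites were searched on the sense strand of the longest annotated 3' UTR (GENCODE release 44, GRCh38). An 8mer of MIR9-2-5p reads ACCAAAGA, the shorter 7mer-m8 reads ACCAAAG, the 7mer-A1 reads CCAAAGA and the 6mer inside them all reads CCAAAG. Of 14960 protein-coding genes tested with a 3' UTR, 5.14% held an 8mer, and 53.1% held none of the 4 forms. The sites below belong to 5 of the 10 largest alike falls and to KLHDC10, the only one of the 10 largest alike rises with an 8mer. The matched bases are in capitals, and the windows were read from the mRNA strand. Only RAB34 follows from the rule for printed sites, which took falls with an 8mer among the 10 largest alike falls and the alike miR-9 targets. The others were chosen after their values were seen. CCNE1 and ALG12, named below under other parts of the rule, also fell and hold an 8mer.
RAB34 (chr17:28714534-28714555, minus strand, 8mer): ctgactttatccagACCAAAGA
SLC7A8 (chr14:23126997-23127018, minus strand, 7mer-A1): aactgacattcatacCCAAAGA
PHC1 (chr12:8940526-8940547, plus strand, 7mer-A1): atagtattgaaaagtCCAAAGA
CCKBR (chr11:6271629-6271650, plus strand, 6mer): acaggaaaccaacacCCAAAGc
HAS3 (chr16:69115367-69115388, plus strand, first of 2 6mers): tagtctcttaatggtCCAAAGg
KLHDC10 (chr7:130132839-130132860, plus strand, first of 2 8mers): ggatttatacagggACCAAAGA

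In the additive fit 8950 of 19576 genes passed an adjusted p under 0.05 (45.7%), 4543 higher (23.2%) and 4407 lower (22.5%), by edgeR's quasi-likelihood test. For most of these calls, a change in the same direction did not pass in each line alone. A pass in 1 line only does not by itself show that the lines differ, and some genes were not tested in the other line. Of the 8950, 3602 also passed in each line alone in the same direction, 5122 passed in 1 line only or in opposite directions, and 226 passed in neither line alone. In all, 2681 genes passed in both lines with opposite signs, or 17.7% of those tested in both, against 12.2% that rose in both and 11.6% that fell in both. In the lines fitted alone, 59.3% of genes tested in NT2/D1 passed (30.2% higher, 29.1% lower) and 66.3% of those tested in TCam-2 (33.7% higher, 32.7% lower). The difference of response between lines passed for 10414 of 19576 genes (53.2%).

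The 1519 alike genes made up 10% of the 15173 tested in both lines, 5.27% higher and 4.75% lower. Their median log2 fold change was 0.47 for the rises and -0.43 for the falls, and 43 rises and 32 falls reached a fold change of 2. The groups did not overlap in either line for 644 of the alike rises and 584 of the alike falls. Over all 19576 genes, libraries of the groups did not overlap in either line for 8.01% that were higher and 7.33% that were lower. The alike share rose with depth. It was 0.185% higher and 0.211% lower in the quartile with the lowest mean counts (5.75 to 56.5 in the weaker line), where the median interval of the difference was 1.63 wide, and 8.15% and 9.70% in the top quartile, where it was 0.439 wide. Genes with few counts could therefore rarely meet the limit, whatever their change.

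**Figure D1:**
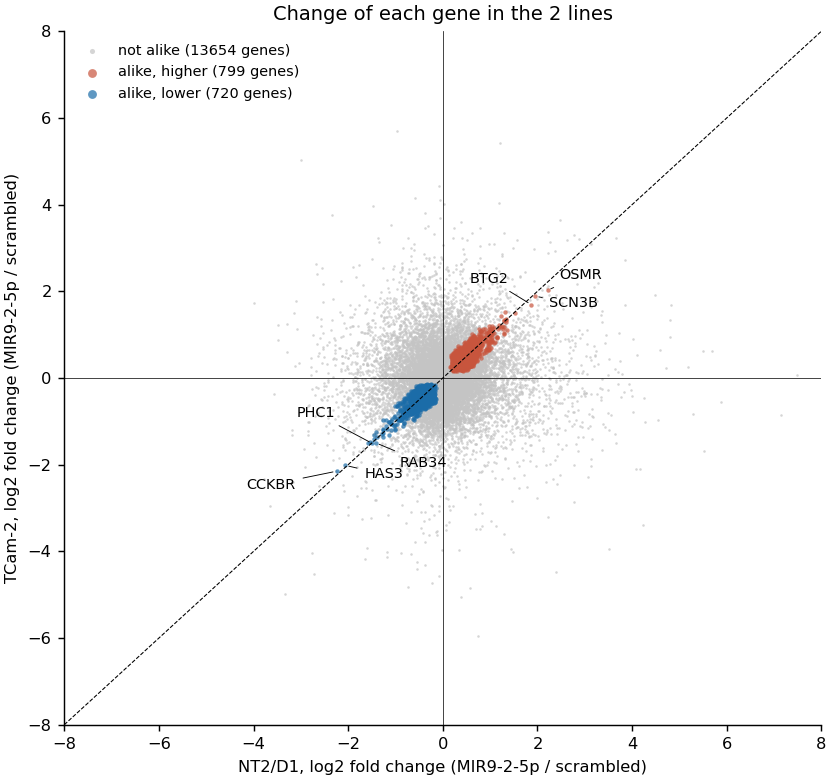
Log2 fold change with MIR9-2-5p against scrambled in NT2/D1 (x axis) and TCam-2 (y axis) for the 15173 genes tested in both lines, 1 point per gene, with the line of equal change dashed. The 799 alike rises (red) and 720 alike falls (blue) lie along that line by construction, and the other genes (grey) spread into all 4 quadrants.

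The lines share no library, so genes were grouped by their change in 1 line and read in the other. Of the 4635 genes that rose in NT2/D1, 39.9% rose and 30.7% fell in TCam-2, where 33.1% of all genes tested in both rose and 34.1% fell. Of the 4435 that fell in NT2/D1, 39.5% fell and 28.3% rose in TCam-2. Of the 333 genes that rose at least 4-fold in NT2/D1, 34.8% rose and 34.8% fell in TCam-2, with a median log2 fold change of -0.02. In the reverse direction, of the 212 genes that rose at least 4-fold in TCam-2, 32.5% rose and 26.4% fell in NT2/D1, against 30.5% and 29.2% of all. Of the 169 genes that fell at least 4-fold in NT2/D1, 42.6% fell and 33.1% rose in TCam-2, and of the 184 that fell as much in TCam-2, 38% fell and 29.3% rose in NT2/D1.

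The largest alike rise was OSMR, the oncostatin M receptor of the IL-6 cytokine family (chr5:38845858-38945596). It was at 19.4, 18.1, 19.95 and 18.3 CPM in the NT2/D1 libraries with MIR9-2-5p and at 4.33, 3.47, 3.71 and 4.76 CPM in the scrambled ones. In TCam-2 it was at 34.9, 36.2, 39.4 and 34.6 CPM with the mimic and at 8.61, 8.24, 9.70 and 9.48 CPM without. Every mimic library was above every scrambled library of its line, and the baseline in TCam-2 was higher. On the log2 scale the rise was 2.11 (SE 0.082, edgeR adjusted p = 2.4e-11), or 2.21 within NT2/D1 and 2.02 within TCam-2, with an interval of the difference from -0.51 to 0.10. SCN3B, a sodium channel beta subunit, rose from 3.47 ± 0.347 to 13.4 ± 1.43 CPM in NT2/D1 and from 2.93 ± 0.404 to 10.7 ± 2.03 CPM in TCam-2 (SD, n = 4). Its libraries did not overlap either, with a log2 fold change of 1.91 (SE 0.11).

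BTG2, an antiproliferative factor that is transcribed by p53 (chr1:203305491-203309602), was the third. With MIR9-2-5p it was at 80.02, 89.1, 89.7 and 88.9 CPM in NT2/D1 and 113, 108, 110 and 113 CPM in TCam-2. The scrambled libraries stood at 21.1, 24.6, 24.5 and 24.7 CPM and at 30.4, 35.7, 35.1 and 37.1 CPM, far below the mimic libraries in both lines. The log2 fold change was 1.78 (SE 0.061, edgeR adjusted p = 5.91e-12). MDM2, the ubiquitin ligase that degrades p53 and is itself transcribed by it, rose from 143 ± 12.8 to 348 ± 34.4 CPM in NT2/D1 and from 236 ± 13.6 to 589 ± 43.4 CPM in TCam-2 (SD, n = 4). Its change was 1.28 in NT2/D1 and 1.33 in TCam-2 on the log2 scale, and the interval of the difference ran from -0.19 to 0.26.

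KLHDC10, a substrate adaptor of a ubiquitin ligase, held 2 MIR9-2-5p 8mers and an 8mer of the miR-302 seed in its 3' UTR of 4959 bases. It was at 23.0, 22.04, 22.5 and 23.2 CPM with the mimic and 9.33, 10.7, 9.94 and 5.77 CPM without in NT2/D1. The TCam-2 libraries held 30.6, 31.6, 36.2 and 33.6 CPM with the mimic and 13.3, 13.6, 13.9 and 13.6 CPM without. Although it carries the full seed match, it was higher in all 8 mimic libraries than in any scrambled library of the same line, and the rise was 1.31 on the log2 scale (SE 0.099, edgeR adjusted p = 2.97e-08).

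The remaining 5 of the 10 largest alike rises had log2 fold changes from 1.23 to 1.42. RGS3, which turns off G protein signalling, reached 71.2 ± 6.55 CPM from 28.4 ± 2.95 in NT2/D1 and 53.1 ± 3.70 CPM from 18.6 ± 1.33 in TCam-2 (SD, n = 4). PPP1R15A (GADD34), which directs dephosphorylation of eIF2alpha, rose from 21.9 to 55.6 CPM and from 75.3 to 190 CPM, in each line by 1.34 or 1.35 on the log2 scale. DUSP1, a MAP kinase phosphatase, rose from 10.8 to 25.6 CPM and from 7.01 to 18.9 CPM. SLC25A51, the mitochondrial NAD transporter, rose from 10.3 to 25.1 CPM and from 8.34 to 20.5 CPM. NRCAM, a neuronal adhesion molecule, rose from 14.9 to 38.3 CPM and from 43.5 to 93.4 CPM. DUSP1 met the limit of similarity in 15 of 23 other settings and SCN3B in 18, whereas BTG2, RGS3, PPP1R15A, KLHDC10, MDM2, SLC25A51 and NRCAM met it in 23.

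CCKBR, the gastrin and cholecystokinin B receptor (chr11:6259806-6272127), was the largest alike fall. It stood at 7.12, 6.16, 5.52 and 6.78 CPM with MIR9-2-5p and 35.8, 24.8, 26.4 and 33.9 CPM without in NT2/D1. The TCam-2 values were 3.78, 3.03, 2.66 and 4.12 CPM with the mimic and 14.7, 15.4, 15.04 and 16.3 CPM without. No mimic library came near a scrambled one, and the log2 fold change was -2.21 (SE 0.11, edgeR adjusted p = 3.14e-10). HAS3, which synthesises hyaluronan (chr16:69105653-69118719), was at 23.4, 26.0, 24.5 and 27.0 CPM with the mimic and 109, 105, 103 and 102 CPM without in NT2/D1. In TCam-2 it was at 19.0, 19.7, 17.2 and 20.8 CPM against 71.6, 84.9, 76.0 and 81.1 CPM. Its fall was of nearly one size in the lines, -2.06 and -2.02 on the log2 scale, with an interval of the difference from -0.19 to 0.25. CCKBR and HAS3 each held the 6mer as their best site.

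PHC1, a subunit of Polycomb repressive complex 1 that is abundant in pluripotent cells (chr12:8913896-8941467), fell from a high level. It was at 297, 304, 279 and 260 CPM with the mimic and 872, 831, 765 and 727 CPM without in NT2/D1, and at 99.1, 96.4, 77.2 and 84.9 CPM against 264, 239, 254 and 271 CPM in TCam-2. The level in scrambled cells was lower in TCam-2, and the change was -1.49 and -1.51 on the log2 scale. MYCN, an oncogenic transcription factor of embryonal cells, fell from 155 ± 11.1 to 58.1 ± 4.97 CPM in NT2/D1 and from 130 ± 5.89 to 53.9 ± 5.89 CPM in TCam-2 (SD, n = 4). SLC7A8, a transporter of neutral amino acids, fell from 147 ± 7.48 to 50.4 ± 1.12 CPM and from 220 ± 4.32 to 78.8 ± 3.09 CPM, with the narrowest interval of the difference among the 10, from -0.11 to 0.24.

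RAB34, a small GTPase of cilium assembly and lysosome positioning and a known target of miR-9 (chr17:28714281-28718429), was the single alike fall among the 10 largest with an 8mer. It was at 44.2, 44.9, 40.3 and 42.4 CPM with MIR9-2-5p and 115, 104, 109 and 128 CPM without in NT2/D1. In TCam-2 it was at 10.7, 9.21, 10.3 and 10.3 CPM against 28.1, 28.7, 30.02 and 28.7 CPM. The log2 fold change was -1.46 (SE 0.059, edgeR adjusted p = 2.52e-11), and the interval of the difference ran from -0.33 to 0.13. The other alike falls of the 10 were ZSCAN2, a zinc finger protein (log2 fold change -1.55), KRTCAP3, a membrane protein (-1.39), AMH, the anti-Müllerian hormone normally made by Sertoli cells (-1.39), and CDK18, a cyclin-dependent kinase (-1.28). AMH was at 78.9 ± 18.2 CPM in scrambled NT2/D1 cells and 11.4 ± 1.155 CPM in scrambled TCam-2 cells (SD, n = 4), and it missed the limit of similarity in 4 of 23 other settings.

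**Figure D2:**
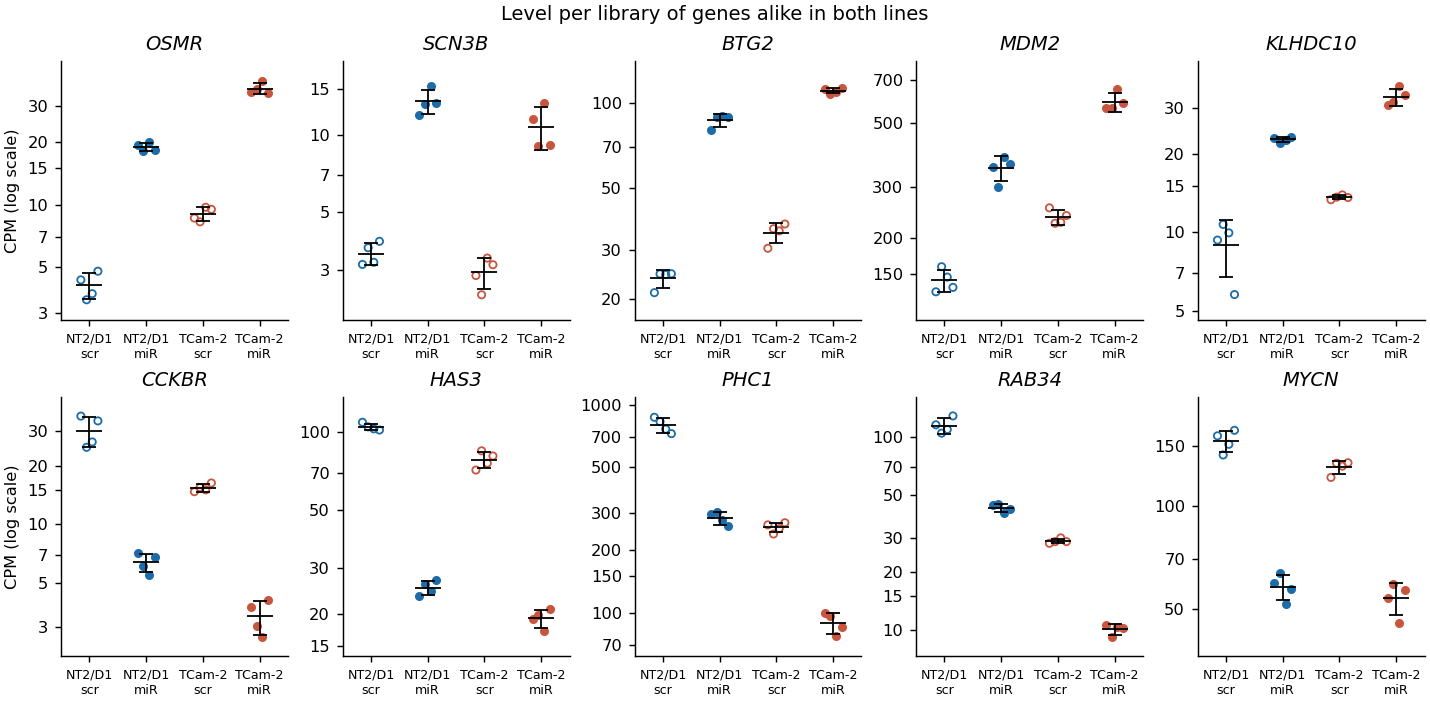
CPM on a log scale in each library for 5 alike rises (upper row) and 5 alike falls (lower row), in scrambled (open) and MIR9-2-5p (filled) libraries of NT2/D1 (blue) and TCam-2 (red), with the mean and SD of 4 replicates. In each panel the shift from scrambled to mimic is of similar height in both lines. The starting levels differ in some panels, as for PHC1, which starts at a mean of 799 CPM in NT2/D1 and 257 CPM in TCam-2, and overlap for SCN3B.

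Members just inside and just outside the limit show what it separates. ADCY9, an adenylyl cyclase, changed by 0.33 in NT2/D1 and 0.62 in TCam-2 on the log2 scale and was inside, with an interval from -0.03 to 0.58. CEP164 (0.22 and 0.57) and ANKRD9 (-0.58 and -0.47) were inside on the same side. CANX, the chaperone calnexin, changed by 0.21 and 0.62 and was outside, as were RGP1 (0.44 and 0.82) and SRPK2 (0.36 and 0.76). On the other side FCHO2 (0.71 and 0.45), CC2D1A (-0.30 and -0.56) and RPL23A (-0.27 and -0.64) were inside, and RTL6 (0.55 and 0.22), SLC7A6 (1.02 and 0.74) and ALG12 (-0.50 and -0.76) were outside. Of the 3602 genes called in the same direction in both lines, 2083 were not alike, and the change was larger in NT2/D1 for 982 of these and larger in TCam-2 for 1101.

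Among 39 measured genes of a list of established miR-9-5p targets, 11 rose and 9 fell in the additive fit, with a median log2 fold change of 0.05 against 0.01 over all genes. The rises made up 28.2% and the falls 23.1% of the list, near the background of 23.2% and 22.5%. RAB34 was the 1 alike fall. The 3 alike rises were ITGB1, the integrin beta 1 subunit, at 0.44 (SE 0.05), PRDM1, a repressor that specifies germ cells, at 0.70 (SE 0.085), and DICER1, the RNase that cuts miRNA precursors, at 0.47 (SE 0.071). PRDM1 was low in NT2/D1, at a mean of 2.81 CPM scrambled and 4.20 CPM with the mimic, against 55.6 and 95.7 CPM in TCam-2. It met the limit of similarity in 20 of 23 other settings. DICER1 was at 86.3, 76.4, 92.1 and 88.4 CPM with the mimic against 59.7, 74.1, 61.1 and 58.8 CPM in NT2/D1, where 1 scrambled library stood above the others. TCam-2 cells held 92.2, 93.4, 117 and 97.3 CPM against 77.0, 64.7, 68.1 and 71.8 CPM. DICER1 and PRDM1 each held a 7mer-m8 in the 3' UTR. LIN28A, an RNA-binding protein that blocks let-7 maturation, fell in both lines but not alike, by 2.09 in NT2/D1 and by 0.91 in TCam-2, with an interval of the difference from 0.99 to 1.34.

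Without regard to 3' UTR length, protein-coding genes with an 8mer of MIR9-2-5p were not lower as a set than genes with none. Differences within quartiles of length are given below. The median log2 fold change in the additive fit was 0.04 for the 769 genes with an 8mer and -0.05 for the 7942 with none. Alike falls made up 6.78% of the 8mer genes tested in both lines and 5.80% of those with none, and alike rises made up 7.08% and 4.88%. Among all genes in the quartile of longest 3' UTRs (2920 bases or more), 3.86% were alike falls and 10.2% alike rises. Among the 46 alike falls with an 8mer, RAB34 was followed by BICDL1 (-1.16), RAB11FIP4 (-1.08) and TAFA5 (-1.07), and among the 48 alike rises KLHDC10 was followed by BACE1 (1.09) and ZNF641 (0.99). These 5 genes after RAB34 and KLHDC10 were chosen after their values were seen.

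The lines went opposite ways on this measure. In the NT2/D1 mimic libraries the median change of genes with an 8mer minus that of genes without a site was -0.07, -0.13, -0.03 and -0.07 on the log2(CPM + 1) scale, against the mean of the scrambled libraries. In TCam-2 it was 0.16, 0.17, 0.27 and 0.20. Genes with longer 3' UTRs were also higher with the mimic: by quartile of 3' UTR length the median log2 fold change went from -0.32 to 0.24 in TCam-2 and from -0.03 to 0.07 in NT2/D1. Genes with an 8mer had a median 3' UTR of 3352 bases and genes with none of 792. Within the quartiles of length, the difference between 8mer genes and genes without a site was -0.09, -0.23, -0.14 and -0.18 in NT2/D1 and -0.09, 0.05, 0.13 and -0.001 in TCam-2. In the additive fit it was -0.14, -0.06, -0.03 and -0.08, below 0 in each quartile, whereas without regard to length it was 0.09.

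The 8mer of the miR-302 seed reads AGCACTTA and was held by 4.14% of the 3' UTRs. Of 549 such genes tested in both lines, 61 were alike rises (11.1%) and 17 alike falls (3.10%), against 4.44% and 6.11% of genes with no site. Genes with this 8mer had a median 3' UTR of 3750 bases, against 878 with no site. Among all genes in the quartile of longest 3' UTRs, 10.2% were alike rises and 3.86% alike falls. The median log2 fold change of the 8mer genes exceeded that of genes with no site in every quartile of 3' UTR length in the additive fit, by 0.36, 0.22, 0.14 and 0.13. In TCam-2 alone the third quartile gave -0.07, and the first quartile rests on 19 genes with an 8mer. A search for the 8mer AGCTTTAA of MIR9-2-3p, the other arm of the hairpin, held by 6.16% of 3' UTRs, gave 9.41% alike rises and 4.21% alike falls among 808 genes with its 8mer, against 4.30% and 5.84% of genes with none of its sites. The MIR9-2-3p 8mer genes had a median 3' UTR of 3526 bases, against 928 for genes with none of its sites. By quartile of 3' UTR length, the MIR9-2-3p 8mer genes also exceeded genes with none of its sites, by 0.06, 0.109, 0.0675 and 0.101 in the additive fit. The differences were 0.334, 0.211, 0.144 and 0.102 in TCam-2 and 0.0229, 0.0023, 0.0321 and 0.0641 in NT2/D1. The alike rises had longer 3' UTRs than the alike falls, with medians of 2599 and 1255.5 bases against 1555 bases over all protein-coding genes with a 3' UTR tested in both lines, and a lower GC share (38.7% and 44%, against 42.9%).

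Among the 10 largest alike rises, the 10 largest alike falls and the alike miR-9 targets, 8 genes had the 6mer as best site. Of these 5 were rises, and the windows of OSMR, PPP1R15A, MDM2 and ITGB1 all ended in the same 10 bases, ctcCCAAAGt, which also occur in the consensus of the Alu repeat. None of the 3 falls (CCKBR, HAS3 and CDK18) shared them. The run ended the first such window in 730 of 3199 tested genes with the 6mer as best site (22.8%), and the median log2 fold change of those genes was 0.05, against 0.09 for the other genes with a 6mer.

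**Figure D3:**
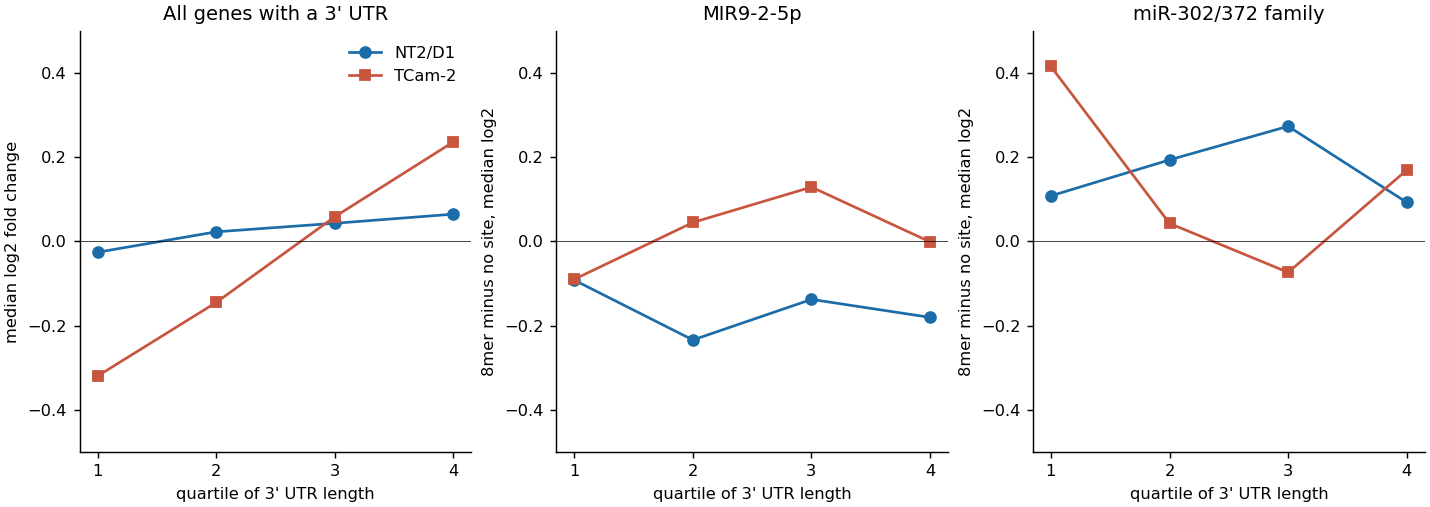
Median log2 fold change by quartile of 3' UTR length (left), and the difference of medians between genes with an 8mer and genes with no site for MIR9-2-5p (middle) and for the miR-302 seed (right), in NT2/D1 (blue circles) and TCam-2 (red squares), with no error bars because each point is 1 median over genes. In TCam-2 the left panel climbs from -0.32 to 0.24, and in the middle panel NT2/D1 stays below 0 in every quartile.

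Of 24 measured genes from a list of miR-302 family targets, 10 rose and 6 fell in the additive fit (41.7% and 25%, against 23.2% and 22.5% of all genes). BTG2, BTG1, KLF13, ARID4B and TOB2 were alike rises, and RBBP6 was an alike fall. BTG1, an antiproliferative paralogue of BTG2, rose from 18.2 to 31.2 CPM in NT2/D1 and from 30.3 to 58.8 CPM in TCam-2, and KLF13, a zinc finger transcription factor, rose by 0.57 (SE 0.066) on the log2 scale. Both held an 8mer of that seed. The list's median was 0.35 in the additive fit, 0.47 in NT2/D1 and -0.07 in TCam-2.

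Targets of p53 had the highest share of rises among the lists. Of 30 measured, 22 rose and 1 fell (73.3% and 3.33%, against the background of 23.2% and 22.5%), and the median log2 fold change was 0.69. In NT2/D1 24 rose and 2 fell of 30, in TCam-2 18 rose and 6 fell of 29, and 16 rose in both. Over all genes, 30.2% rose and 29.1% fell in NT2/D1, and 33.7% and 32.7% in TCam-2. Of all genes tested in both lines, 12.2% rose in both. The alike rises were BTG2, MDM2, PPM1D and SESN2, which damp p53 or growth signalling, POLH, RRM2B and XPC, which serve DNA repair and synthesis, and TRIAP1, an inhibitor of apoptosis. ZMAT3, an RNA-binding protein that p53 induces, rose by 2.01 in NT2/D1 and by 1.68 in TCam-2, just past the limit of similarity. CDKN1A, which encodes the cell cycle inhibitor p21, rose by 3.22 in NT2/D1 but by 0.51 in TCam-2, and was not alike. PERP, a membrane protein with a part in apoptosis, was the alike fall, at -0.25 (SE 0.05).

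Of 58 genes for licensing and forks of DNA replication, 43 fell and 3 rose (74.1% and 5.17%, against the background of 22.5% and 23.2%). The median log2 fold change was -0.38. In both lines alone 24 fell, against 11.6% of all genes tested in both, and 9 rose in TCam-2, against 33.7% of all genes there. The response of 36 differed between the lines, against 53.2% of all genes. Alike falls numbered 15, against 4.75% of all genes tested in both lines and 9.70% of those in the top quartile of mean counts. CDC6, which loads the replicative helicase, was at 75.2, 75.2, 75.9 and 74.4 CPM with the mimic and 116, 122, 117 and 117 CPM without in NT2/D1. In TCam-2 it was at 69.3, 70.6, 80.8 and 75.0 CPM against 116, 118, 125 and 114 CPM, so that both its levels and its change nearly coincided in the lines. The fall was 0.67 on the log2 scale (SE 0.048, edgeR adjusted p = 1.68e-08) and 1.59-fold. The alike falls also held ORC1 of the origin complex, GINS1 and GINS2 of the helicase, the clamp PCNA, the polymerase subunits POLE and POLE2, and the transcription factors E2F1 and E2F8. CCNE1, the cyclin of S phase entry, and MCM5, a helicase subunit, fell more in TCam-2 than in NT2/D1 (-1.35 against -0.98 for CCNE1 and -1.35 against -0.95 for MCM5). TYMS, thymidylate synthase, was the 1 alike rise of the list, at 0.41 (SE 0.083).

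Among 52 mitotic genes 41 fell and 1 rose (78.8% and 1.92%, against the background of 22.5% and 23.2%), with a median of -0.44. In NT2/D1 26 fell and 3 rose, and in TCam-2 42 fell and 3 rose. Over all genes, 29.1% fell and 30.2% rose in NT2/D1, and 32.7% and 33.7% in TCam-2. Alike falls numbered 11, against 4.75% of all genes tested in both lines and 9.70% of those in the top quartile of mean counts. The alike falls included TOP2A, the topoisomerase of chromosome segregation (-0.77, SE 0.073), CDC25A, the phosphatase that activates cyclin-dependent kinases (-0.47, SE 0.049), the kinesins KIF11 and KIF2C, and FOXM1, which drives mitotic transcription. AURKB, a kinase of the chromosomal passenger complex, fell by 0.84 in NT2/D1 and by 1.62 in TCam-2 and was not alike.

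Of 71 spliceosome components and splicing regulators measured, 53 fell and 2 rose (74.6% and 2.82%, against the background of 22.5% and 23.2%). The median was -0.37. Of the falls 18 were alike, against 4.75% of all genes tested in both lines and 9.70% of those in the top quartile of mean counts. HNRNPA1 fell from 2408 ± 132 to 1608 ± 47.98 CPM in NT2/D1 and from 2986 ± 168 to 1626 ± 56.2 CPM in TCam-2 (SD, n = 4), by 0.59 and 0.86 on the log2 scale. HNRNPA2B1 fell by 0.58 and 0.87, and HNRNPD by 0.54 and 0.93, the last outside the limit. All 3 encode abundant proteins that bind pre-mRNA. U2AF1 and U2AF2, which recognise the 3' splice site, SRSF1, and the Sm proteins SNRPB and SNRPD1 were also alike falls.

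Cytosolic ribosomal proteins gave the largest count of alike falls among the lists. Of 79 measured, 61 fell (77.2%) and none rose, against the background of 22.5% lower and 23.2% higher. The median was -0.36, or -0.30 within NT2/D1 and -0.39 within TCam-2. Alike falls numbered 31, against 4.75% of all genes tested in both lines and 9.70% of those in the top quartile of mean counts. RPL3 fell by 0.55 (SE 0.059), RPL27A by 0.56 (SE 0.061) and RPL21 by 0.57 (SE 0.069) on the log2 scale. Summed over the list, the level was 51800 to 57100 CPM with the mimic and 61200 to 73400 CPM without in NT2/D1, and 75200 to 82100 against 91600 to 115000 CPM in TCam-2. Many of these genes, such as RPL21 and RPL23A, have near-identical processed copies, between which the counting may have divided reads.

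**Figure D4:**
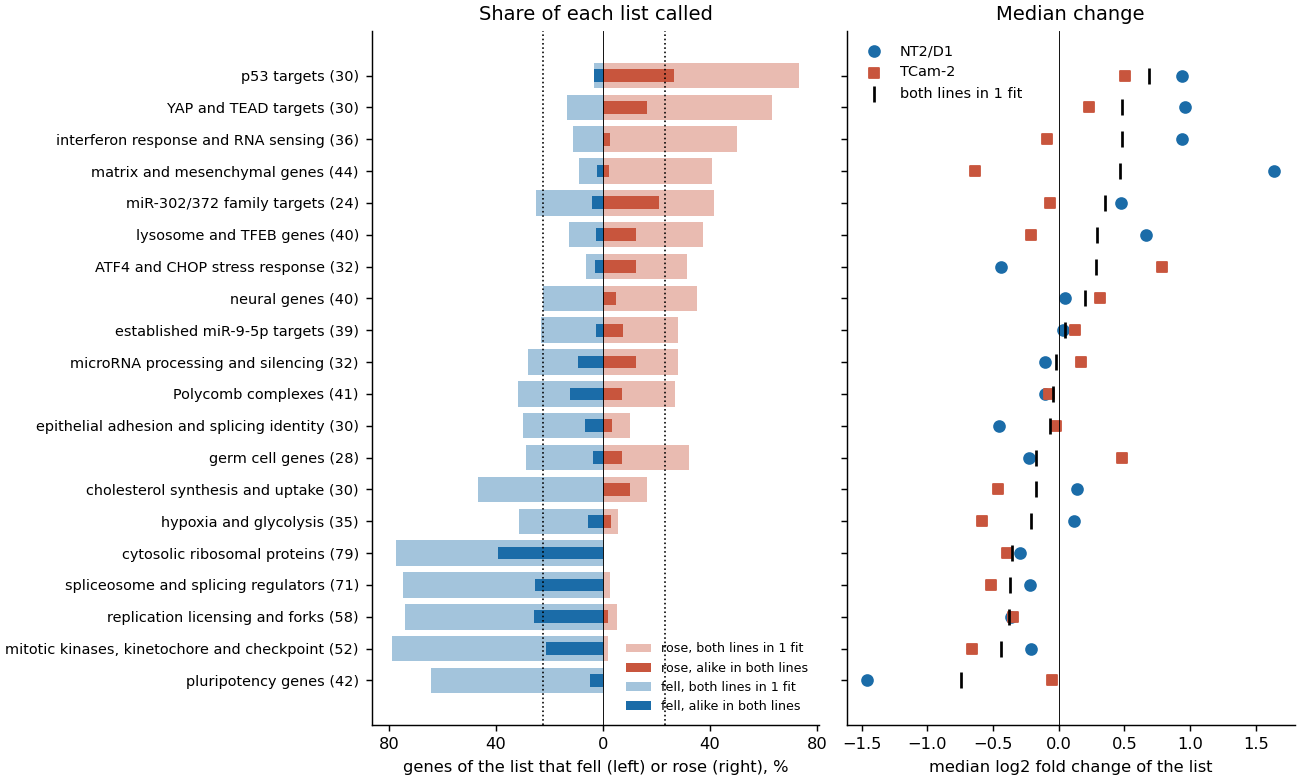
Share of each gene list that fell (left of 0) or rose (right) in the additive fit (pale bars) and that was alike in both lines (dark bars), with the number measured in parentheses and dotted lines at the background of 22.5% and 23.2%, beside the list's median log2 fold change in NT2/D1, in TCam-2 and in the additive fit. Replication genes and ribosomal proteins have medians close together in the lines, whereas matrix genes (1.64 and -0.64) and pluripotency genes (-1.46 and -0.05) do not.

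Pluripotency genes gave 27 falls (64.3%) and no rise among 42 measured in the additive fit, against the background of 22.5% lower and 23.2% higher. PHC1 and MYCN were the only 2 alike, a count near the 4.75% of alike falls among all genes tested in both lines. DNMT3B, a DNA methyltransferase of early embryonic cells, fell by 2.03 in NT2/D1 and by 1.26 in TCam-2, and the list's median was -1.46 in NT2/D1 and -0.05 in TCam-2. Of the list, 39 of 40 fell and 1 rose in NT2/D1, whereas in TCam-2 15 of 39 fell and 12 rose. Over all genes, 29.1% fell and 30.2% rose in NT2/D1, and 32.7% and 33.7% in TCam-2. Interferon response genes gave 18 rises and 4 falls of 36 (50% and 11.1%, against the background of 23.2% and 22.5%). Only 1 was alike, IRF7, a rise. In NT2/D1 25 rose and 3 fell of 35, whereas in TCam-2 9 rose and 11 fell of 28, against 33.7% and 32.7% of all genes there. RIGI, a sensor of viral RNA, rose by 1.37 and 1.03, IFIT3 by 2.35 and 1.55 from 0.784 and 0.776 CPM, and BST2, which tethers virions, fell by 1.52 and 1.03. YAP and TEAD targets gave 19 rises and 4 falls of 30 (63.3% and 13.3%, against the background of 23.2% and 22.5%). In NT2/D1 24 rose and 2 fell of 29, whereas in TCam-2 15 rose and 9 fell of 29. Alike rises numbered 5, against 5.27% of all genes tested in both lines, among them TEAD1 itself (0.81, SE 0.069), ASAP1 and PTPN14. NT5E and TGFB2, at the head of that list with 3.96 and 3.02 in the additive fit, rested on NT2/D1, since in TCam-2 the highest libraries held 0.755 and 1.31 CPM.

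Polycomb genes gave 11 rises and 13 falls among 41 (26.8% and 31.7%, against the background of 23.2% and 22.5%). PHC1 fell alike while YAF2, an adaptor of variant complexes, rose alike by 0.94 (SE 0.092), and PHC3, a paralogue of PHC1, rose by 0.90 and 1.24 in the lines, outside the limit. The other alike falls were EZH2, MTF2, PCGF2 and PCGF6 and the other alike rises BMI1 and PHF19. Genes of miRNA processing and silencing gave 9 rises and 9 falls of 32 (28.1% each). DICER1, DDX6, CNOT6 and DCP1A, which act in cutting precursors and in decay of target mRNAs, were alike rises, whereas DROSHA, PRKRA and TNRC6A were alike falls. DROSHA, the nuclear RNase of miRNA biogenesis, was at -0.35 (SE 0.05) and DDX6, an RNA helicase of silencing, at 0.46 (SE 0.068).

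In several of the remaining 8 lists the counts of the additive fit combine opposite balances of rises and falls in the lines. The shares that rose and fell were 40.9% and 9.09% for matrix, 37.5% and 12.5% for lysosomal and 31.2% and 6.25% for ATF4 genes. They were 16.7% and 46.7% for cholesterol and 5.71% and 31.4% for hypoxia genes, against the background of 23.2% and 22.5%. In each line alone, 30.2% of all genes rose and 29.1% fell in NT2/D1, and 33.7% and 32.7% in TCam-2. Of 44 matrix genes 18 rose and 4 fell in the additive fit. Alone, NT2/D1 gave 38 rises and 2 falls of these, and TCam-2 gave 3 rises and 26 falls. Of 40 lysosomal genes 15 rose and 5 fell (25 rose in 1 fit of the 4 groups), with 32 rises and 5 falls in NT2/D1 and 10 and 22 in TCam-2. The ATF4 response list gave 10 rises and 2 falls of 32 (20 rises in 1 fit of the 4 groups), with 7 and 21 in NT2/D1 and 29 and 1 in TCam-2. Cholesterol genes gave 5 rises and 14 falls of 30, with 12 and 2 in NT2/D1 and 6 and 18 in TCam-2, and their 3 alike genes were rises. Genes of hypoxia and glycolysis gave 2 rises and 11 falls of 35 (20 falls in 1 fit of the 4 groups), with 17 and 8 in NT2/D1 and 4 and 25 in TCam-2. The other lists gave 14 rises and 9 falls of 40 neural genes (35% and 22.5%), 9 and 8 of 28 germ cell genes (32.1% and 28.6%, with 5 and 10 in NT2/D1 and 12 and 6 in TCam-2) and 3 and 9 of 30 epithelial genes (10% and 30%), against the background of 23.2% and 22.5%. Between 2 and 6 genes of each of the 8 lists were alike in either direction, against 10% of all genes tested in both lines. The alike genes of these lists included ITGB1 and SNAI1, PSAP and GLB1, SESN2 and PPP1R15A, SYT1, TFAP2C, ESRP2, NPC1, and HIF1A and GPI.

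Genes without a coding annotation made up 34 of the 1519 alike genes, 15 of them long non-coding RNAs out of 1397 tested. The 3 largest rises were ENSG00000278730, a long non-coding RNA (1.08, SE 0.12), ENSG00000256594, an annotated pseudogene (1.03, SE 0.12), and SH3BP5-AS1, antisense to SH3BP5 (0.91, SE 0.097), which met the limit of similarity in only 9 of 23 other settings. The 3 largest falls were MIR1244-2 (-1.43, SE 0.13), ENSG00000277196, with no match in the annotation used (-1.32, SE 0.10), and ECEL1P1, a pseudogene of ECEL1 (-1.29, SE 0.12). MIR1244-2 has near-identical copies in the genome and the strand setting of the counting is not given, so reads at these genes may belong to copies or to overlapping genes.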

How the data were processed

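Total RNA of 16 libraries was sequenced, 4 biological replicates per group by the labels. The authors deposited a table of read counts per gene, which are whole numbers and not normalized. Trimming is credited to fastp in the methods but to Trim Galore and cutadapt in the submitters' processing notes, which also list FastQC, alignment with STAR, counting with featureCounts and the build GRCh38. For the annotation release and the strand setting of the counting: not given in the sources used here. Of 58735 gene identifiers, 58207 matched GENCODE release 44.

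Counts were analysed in R 4.3.3 with edgeR 4.0.16 (limma 3.58.1): genes were kept with a minimum count of 10 and a minimum total of 15, scaled by TMM, and tested by the robust quasi-likelihood F test with Benjamini-Hochberg adjustment over all genes tested, at 0.05. The mimic effect was fitted over all libraries with the cell line as covariate, within each line, and with a term for the difference between lines. The scripts were tested on simulated data. CPM values use TMM library sizes. Of the protein-coding alike genes with a mean count of at least 50 in each line and no overlap of groups, the 10 largest rises and falls were named, with alike genes of the miR-9 target list, the 3 smallest p of each list described, the 3 genes nearest each side of the limit, the 3 largest non-coding changes in each direction, and printed sites of falls with an 8mer. Others were chosen after their values were seen. Members and lists were chosen with earlier results of these data known. Libraries held 14167738 to 22427162 counts, and no library was a duplicate of another. The alternatives tried were upper-quartile and RLE factors, DESeq2 1.42.0, other filters, a fold threshold, other limits of similarity, 1 fit of the 4 groups, a replicate block and each library left out. The quartiles of 3' UTR length, and the alternatives for the effects in each line, their difference, the carry-over and each library left out for the lists, were chosen after seeing the data. Some genes are not reported here.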

Additional observations from a re-analysis of the deposited data

Results flagged for a closer look

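Among 200 groups of 4 libraries (50 named genes), 10 held 1 library apart from the other 3 by Dixon's criterion, and chance flags about 1 in 20 groups. In CPM, BTG2 was at 80 in 1 NT2/D1 mimic library (88.9 to 89.7 in the others) and at 21.1 in 1 scrambled NT2/D1 library (24.5 to 24.7). In the NT2/D1 scrambled group DICER1 was at 74.1 in 1 library (58.8 to 61.1 in the others) and HNRNPA1 at 2210 (2440 to 2490), and in the NT2/D1 mimic group IFIT3 was at 3.80 (4.04 to 4.09). In the TCam-2 mimic group NRCAM was at 106 in 1 library (88.7 to 89.9 in the others), PRDM1 at 102 (93.3 to 93.7) and RPL3 at 1360 (1490 to 1510). In the TCam-2 scrambled group KRTCAP3 was at 21.2 (20.8 in the others) and MCM5 at 129 (133 to 134).

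Of 33 genes named from the lists, 14 had a response that differed between the lines by edgeR's test of the difference. Over all 19576 genes tested the share was 53.2%, so such a difference is not particular to the named genes. Given as the TCam-2 minus the NT2/D1 log2 fold change, LIN28A differed by 1.17 (adjusted p = 2.14e-11) and DNMT3B by 0.756 (2.19e-07), both falling less in TCam-2. Those that fell more in TCam-2 were AURKB at -0.794 (3.59e-06), MCM5 at -0.426 (0.000972), HNRNPD at -0.410 (0.00292), CCNE1 at -0.393 (0.00472), TOP2A at -0.320 (0.0137), HNRNPA2B1 at -0.312 (0.00229), HNRNPA1 at -0.294 (0.0029) and RPL3 at -0.265 (0.00796). Rises that were smaller in TCam-2 were TGFB2 at -1.86 (0.000421), NT5E at -1.86 (0.0435), ZMAT3 at -0.344 (0.0169) and TEAD1 at -0.321 (0.0102). TOP2A, HNRNPA1, HNRNPA2B1, RPL3 and TEAD1 were also alike, since a difference can pass the test and still lie inside the limit.

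The median change of genes with a MIR9-2-5p 8mer minus that of genes with no site was -0.0738 over the NT2/D1 mimic libraries and 0.201 over those of TCam-2, a difference of 0.275 on the log2 scale. Each NT2/D1 mimic library was below 0 and each TCam-2 mimic library above 0. The difference was not tested, and 3' UTR length moved with it.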

How the results depend on the processing

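Over the other factors, filters and tools and with each library left out, the counts of genes in the additive fit and of alike genes stayed within 1.5 times of those given. With each library left out in turn, genes higher numbered 4198 to 4620 and lower 4121 to 4559, and alike genes 692 to 867 up and 616 to 826 down, and 976 of the 1519 alike genes were alike each time. Over every such setting at the same limit 857 were. A test against a fold change of 1.5 called 1175 higher and 869 lower. The stricter limit of similarity tried left 203 alike up and 214 down, and a limit of 2-fold gave 1328 and 1284. Upper-quartile factors gave 676 up and 897 down, so that 43.0% of alike genes were higher against 52.6%. In 1 fit of the 4 groups, rises of the ATF4 list numbered 20, rises of the lysosome list 25 and falls of the hypoxia list 20, against 10, 15 and 11. Left-out libraries moved the p53 rises over 21 to 23 and the ribosomal falls over 57 to 64. Within quartiles of 3' UTR length, chosen after seeing the data, the difference between 8mer genes and genes with no site was -0.136, -0.0649, -0.0258 and -0.0771, against 0.0919. The shared replicate numbers gave no clear sign of pairing: deviations of same-numbered libraries from their group means correlated at -0.541 to 0.245. A replicate block gave 3255 higher and 3026 lower genes, with 675 alike up and 611 down. All 611 combinations of a named gene and a setting kept direction and side of the threshold in the additive fit. The named genes were chosen by their changes or p in that fit, so this outcome was largely set in advance. Of the left-out libraries, only those giving the lowest and highest fold change of each gene were compared. The limit of similarity was not part of this check: DUSP1 met it in 15 of 23 other settings and SH3BP5-AS1 in 9. Genes with under 56.5 mean counts rarely met the limit, for want of depth.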
